A study of Homo sapiens with 15 samples.

Results

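The G1 cyclins and their kinases were taken as the rows of the LNCaP expression table that carry the symbols CCND1, CCND2, CCND3, CCNE1, CCNE2, CDK2, CDK4 and CDK6. Rows were found for 7 of these 8 genes among the 17272 genes in the table, and CCND2 was not analysed here. LNCaP is an established androgen-sensitive human prostate cancer cell line, so every library comes from the same line. Cells of both groups were starved for 2 days in medium with charcoal-stripped serum and then received 1 nM of the synthetic androgen R1881 for 22 h. In the R1881 + DMSO group (10 libraries) the solvent alone was added, and in the R1881 + enzalutamide group (5 libraries) the antiandrogen enzalutamide was added at 2 µM. Both groups thus carry the androgen, and the comparison asks how blocking its action changed the polyadenylated RNA of these genes.

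D-type cyclins bind CDK4 and CDK6 early in G1, and the active kinases phosphorylate the retinoblastoma protein, which holds back the E2F transcription factors. E-type cyclins then activate CDK2, which completes this phosphorylation and starts DNA replication. Their activity is held in check by the INK4 inhibitors, which bind CDK4 and CDK6, and by the CIP/KIP inhibitors, which act mainly on cyclin-CDK complexes. In prostate cancer cells that depend on androgen, the hormone is known to drive passage through G1.

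Each of the 7 genes with a row fell with enzalutamide at an adjusted p under 0.05, where 32.7% of all 17046 genes tested fell at that threshold, 29.8% rose and 62.5% did either (limma, Benjamini-Hochberg adjustment over all genes tested). The decreases covered a wide span, from 10.2% of the mean for CCND1 to 77.8% for CDK6. CDK6 and CDK2 fell by more than a log2 fold change of 1, and 4.19% of tested genes were at least 2-fold lower. CCND3 fell by 33.0%, CCNE2 by 19.3%, CCNE1 by 16.3% and CDK4 by 11.5%. In the deposited values the libraries of the treatments did not overlap for 5 of the 7 genes, against 20.1% of genes tested that did not overlap in that direction. With equal library totals CCND1 and CCNE1 overlapped. CCND1 held 5666 of 22906868 reads in DMSO replicate 10 and a larger part, 6438 of 25416052, in enzalutamide replicate 5. CCNE1 held 307 of 22008860 reads in DMSO replicate 1 and a larger part, 316 of 21893693, in enzalutamide replicate 3. The share of all genes tested without overlap was not counted with equal library totals. The median log2 fold change was -0.30 over the 7 genes and -0.01 over all genes tested. The deposited columns do not sum to equal totals, and every DMSO column sums higher than every enzalutamide column. With all library totals set equal these medians were -0.21 and 0.08, 25.2% of genes tested fell and 39% rose. Of the 7 genes 5 then fell at the threshold, and CCND1 and CDK4 missed it. In bulk RNA, fewer cells in a phase of the cycle and less RNA per cell cannot be told apart.

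**Figure D1:**
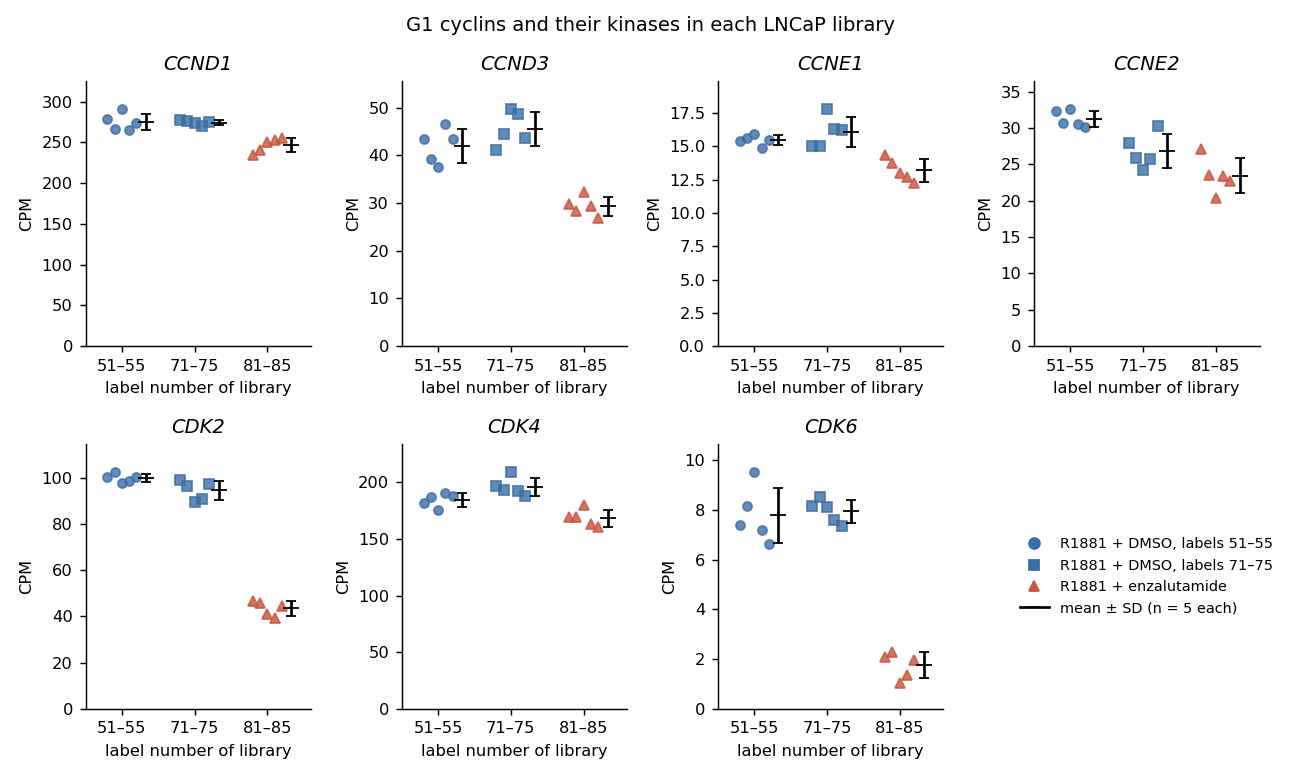
Deposited level of each gene in CPM (reads scaled to library size) in every library, with 1 panel per gene and each axis starting at 0. Blue points are R1881 + DMSO libraries, split by label numbers 51 to 55 and 71 to 75, red triangles are R1881 + enzalutamide libraries, and black bars are the mean ± SD of each 5. On this deposited scale the points of the treatments stand apart for CCND1, CCND3, CCNE1, CDK2 and CDK6, and meet for CCNE2 and CDK4. With equal library totals, not drawn, those of CCND1 and CCNE1 overlap.

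The libraries held 15830745 to 24316740 reads in genes with DMSO and 21188661 to 25416052 with enzalutamide, as recovered from the deposited values. The androgen-induced genes KLK2, TMPRSS2 and FKBP5, which check the treatment labels, fell from 463 to 15.2 CPM, from 850 to 71.5 CPM and from 1502 to 46.8 CPM. Rows were present for 6 of 6 luminal prostate markers, of which 3 rose and 3 fell. Of the basal markers, KRT14 alone had a row and fell, from 0.706 to 1.44 CPM with DMSO to 0 to 0.279 CPM with enzalutamide, and none of 5 leukocyte markers had a row. Of 6 fibroblast markers, COL1A1, COL3A1 and LUM had a row and all rose, from a sum of 6.36 to 10.5 CPM to a sum of 21.2 to 26.7 CPM, and their part in the results was not tested. The labels number the libraries 51 to 55 and 71 to 75 with DMSO and 81 to 85 with enzalutamide without saying what the numbers mean, and no run of numbers holds both treatments, so run and treatment cannot be told apart.

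On GRCh38 with the GENCODE v44 annotation, all 7 are protein-coding genes, and the position of CCNE2 is given with its values. CCND1 lies on the plus strand at chr11:69641156-69654474 with 5 exons in its canonical transcript, and CCND3 on the minus strand at chr6:41934934-42050357, also with 5. CCNE1 lies on the plus strand at chr19:29811991-29824312 with 12 exons. CDK2 and CDK4 share a chromosome, CDK2 on the plus strand at chr12:55966781-55972789 with 7 exons and CDK4 on the minus strand at chr12:57747727-57756013 with 8. CDK6 is by far the longest of these genes, on the minus strand at chr7:92604921-92836573, with 8 exons.

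The 250 bases before starts annotated in RefSeq (GRCh38.p14) were read to show which known motifs these genes carry there. Entries were found for CCND3, CCNE1, CDK4 and CDK6. By the GENCODE positions above, the CCNE1 window and the CDK6 window printed here end at the gene start. The windows of CDK4 and CCND3 and the other CDK6 window lie inside their genes. Searched on both strands were the E2F letters TTTCCCGC, TTTCGCGC, TTTGCCGC and TTTGGCGC, the E-box CACGTG bound by MYC and its partners, the GC box GGGCGG bound by SP1, the androgen response element half-site AGAACA and the letters TTTGAA of the cell cycle homology region. Shown first is the part of the CDK4 window outside annotated exons, which holds a pair of E-boxes in capitals besides a GC box, at chr12:57752448-57752560 on the minus strand. For CCNE1, at chr19:29811741-29811990 on the plus strand, and for CDK6, at chr7:92836574-92836823 on the minus strand, the capitals mark GC boxes.
CDK4: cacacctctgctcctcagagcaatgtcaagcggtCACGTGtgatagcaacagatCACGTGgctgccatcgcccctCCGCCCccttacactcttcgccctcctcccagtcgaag
CCNE1: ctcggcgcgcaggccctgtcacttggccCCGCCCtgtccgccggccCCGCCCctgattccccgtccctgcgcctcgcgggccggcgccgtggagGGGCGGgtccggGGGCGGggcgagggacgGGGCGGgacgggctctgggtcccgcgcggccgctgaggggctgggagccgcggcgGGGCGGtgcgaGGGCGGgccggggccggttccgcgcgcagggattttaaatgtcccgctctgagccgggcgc
CDK6: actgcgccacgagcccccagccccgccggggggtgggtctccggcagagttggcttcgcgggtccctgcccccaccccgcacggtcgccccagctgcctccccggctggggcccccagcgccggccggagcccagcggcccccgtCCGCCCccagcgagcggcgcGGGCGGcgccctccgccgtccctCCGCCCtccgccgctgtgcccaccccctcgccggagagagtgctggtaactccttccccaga
The E-box was found in 6.35% of 35116 RefSeq windows of this length and 3 times in the whole CDK4 window, of which 1 lies in an annotated exon. GC boxes were found in 42.6% of windows. The CCNE1 window held 7 of them, the CDK6 window printed here 3, and the CDK4 window 3, while a second CDK6 window held none. Of the CDK4 boxes only the printed one lies outside annotated exons. The CCND3 windows held 0, 2 and 5 GC boxes, and the window with 5 lies wholly in annotated exon bases of CCND3. No E2F letters, AGAACA or TTTGAA were found in any window of these 4 genes, where 2.79%, 12.4% and 13.3% of all windows hold them. A match or its absence describes these letters only.

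Among the D-type cyclins, CCND3 had the larger decrease and CCND1 the higher level. Cyclin D1, the product of CCND1, is the best-studied partner of CDK4 and an oncogene in several cancers. Its level with DMSO ranged from 265 to 290 CPM with a median of 274 CPM. With enzalutamide the libraries of replicates 1 to 5 read 241, 250, 235, 255 and 252 CPM, each below the lowest DMSO library in deposited CPM. Means were 275 ± 7.17 (SD, n = 10) and 247 ± 8.51 CPM (SD, n = 5), a log2 fold change of -0.16 (SE 0.029, 95% confidence interval -0.22 to -0.09, adjusted p = 9.48e-05 by limma). This small decrease depended on the scaling, with -0.06 (adjusted p = 0.0603) where library totals were set equal. It was -0.08 (adjusted p = 0.0507) where a trend with GC content was removed. With edgeR TMM scaling factors it was -0.14 (adjusted p = 0.000202 by limma) and with DESeq2 median-ratio factors -0.15 (adjusted p = 0.000165), and both passed.

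Cyclin D3, the product of CCND3, activates the same kinases and is best known from blood cells. CCND3 read 37.6 to 49.7 CPM with DMSO with a median of 43.5 CPM. The enzalutamide libraries read 28.2, 32.2, 29.7, 26.9 and 29.4 CPM, with a gap of 5.38 CPM to the lowest DMSO library. The averages of 43.8 ± 3.84 (SD, n = 10) and 29.3 ± 1.96 CPM (SD, n = 5) differed by a log2 fold change of -0.57 (SE 0.060, 95% confidence interval -0.69 to -0.44, adjusted p = 5.33e-08 by limma). The ratio of CCND3 to CCND1, in deposited CPM, was 0.160 ± 0.016 (SD, n = 10) with DMSO and 0.119 ± 0.0093 (SD, n = 5) with enzalutamide, without overlap. This ratio was not tested, and since it is not corrected for length it compares the treatments and not the levels of the genes.

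The E-type cyclins fell to similar degrees. Cyclin E1, from CCNE1, is the partner of CDK2 and is amplified in some tumours. Libraries with DMSO lay between 14.9 and 17.8 CPM with a median of 15.6 CPM. Those with enzalutamide read 13.7, 13.0, 14.4, 12.2 and 12.7 CPM, and the gap between the treatments was 0.481 CPM in the deposited values. On average 15.8 ± 0.859 CPM (SD, n = 10) stood against 13.2 ± 0.855 (SD, n = 5), a log2 fold change of -0.25 (SE 0.054, 95% confidence interval -0.36 to -0.14, adjusted p = 0.000418 by limma). With equal library totals the log2 fold change was -0.16 (adjusted p = 0.0138) and the treatments overlapped.

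Cyclin E2, from CCNE2 (minus strand, chr8:94879770-94896678, 12 exons), is the close relative of cyclin E1 and also activates CDK2. It read 24.3 to 32.6 CPM with DMSO with a median of 30.2 CPM, and 23.5, 20.4, 27.1, 22.8 and 23.4 CPM with enzalutamide. Replicate 3 with enzalutamide lay above the lowest DMSO libraries, so the treatments overlapped. The log2 fold change was -0.30 (SE 0.072, 95% confidence interval -0.45 to -0.15, adjusted p = 0.00112 by limma), for means of 29.0 ± 2.91 (SD, n = 10) and 23.4 ± 2.40 CPM (SD, n = 5). CCNE2 was also the gene whose DMSO libraries differed most between label numbers, at 31.3 ± 1.09 CPM (SD, n = 5) in 51 to 55 and 26.8 ± 2.32 CPM (SD, n = 5) in 71 to 75, a difference that missed the threshold (adjusted p = 0.0672 by limma). Against the first run alone its log2 fold change was -0.41, and against the second -0.19 (adjusted p = 0.0420). None of the 7 genes passed between the DMSO runs, where 3.71% of genes tested did.

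The kinases held both the largest decreases and one of the smallest. CDK2 is the kinase of the E-type cyclins and later of cyclin A. With DMSO it ranged from 89.7 to 102.6 CPM with a median of 98.4 CPM. The enzalutamide libraries read 45.8, 41.0, 46.9, 44.4 and 39.3 CPM, so that 42.8 CPM separated the highest of them from the lowest DMSO library. The log2 fold change was -1.16 (SE 0.044, 95% confidence interval -1.25 to -1.06, adjusted p = 2.04e-15 by limma), for means of 97.4 ± 4.08 (SD, n = 10) and 43.5 ± 3.21 CPM (SD, n = 5). Among tested genes 3.19% had a lower log2 fold change than CDK2. The deposited values rest on a median of 2110 reads with DMSO and 988 with enzalutamide.

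CDK6 is a kinase of the D-type cyclins and was the gene with the lowest level. DMSO libraries held 6.62 to 9.52 CPM with a median of 7.86 CPM, and enzalutamide libraries 2.28, 1.02, 2.09, 1.98 and 1.37 CPM. In reads these are 109 to 193 and 22 to 49, so counting error is larger here than for the other genes. The log2 fold change was -1.93 (SE 0.117, 95% confidence interval -2.17 to -1.68, adjusted p = 7.52e-12 by limma), and 1.17% of tested genes had a lower one. Because 0.5 was added to each value before the log, this understates the ratio of the means, 7.87 ± 0.811 (SD, n = 10) to 1.75 ± 0.529 CPM (SD, n = 5), which was 4.50-fold.

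CDK4 binds the same D-type cyclins as CDK6 and had the smallest log2 fold change of the kinases. Its DMSO libraries ranged from 175 to 209 CPM with a median of 189 CPM. The enzalutamide libraries read 169, 180, 169, 161 and 163 CPM, and replicate 2 lay within the DMSO range. Averages of 190 ± 8.92 (SD, n = 10) and 169 ± 7.53 CPM (SD, n = 5) gave a log2 fold change of -0.18 (SE 0.037, 95% confidence interval -0.25 to -0.10, adjusted p = 0.000366 by limma). With equal library totals the log2 fold change was -0.08 and missed the threshold (adjusted p = 0.0733). With a GC trend removed it was -0.10 and passed (adjusted p = 0.000257). It also passed with edgeR TMM factors (-0.16, adjusted p = 0.00151 by limma) and DESeq2 median-ratio factors (-0.17, adjusted p = 0.000812).

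**Figure D2:**
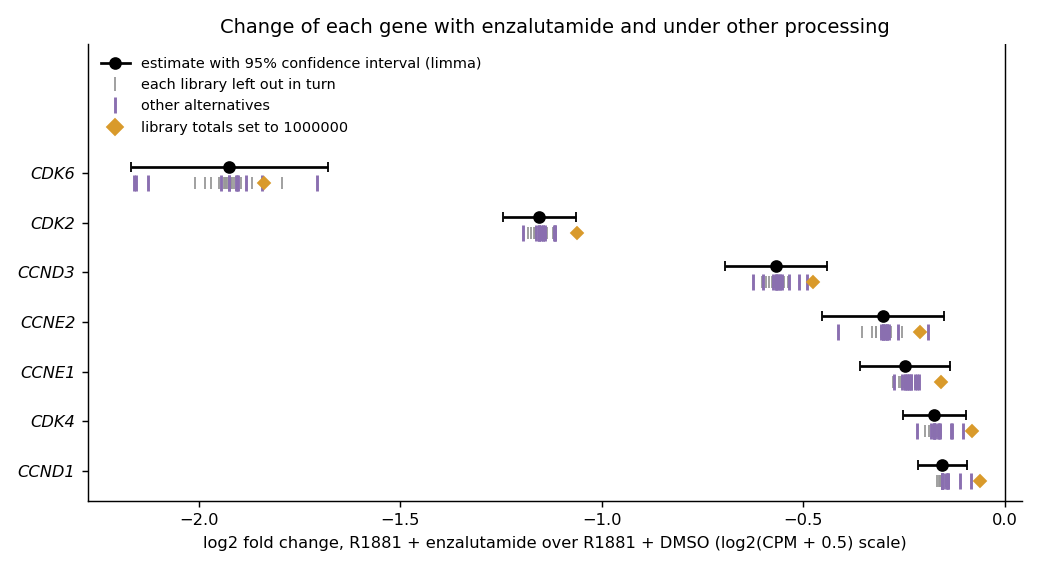
Log2 fold change of each gene, R1881 + enzalutamide over R1881 + DMSO on the log2(CPM + 0.5) scale, with black points and bars for the limma estimate and its 95% confidence interval, grey ticks for each library left out in turn, purple ticks for other alternatives and orange diamonds for equal library totals. CDK6 and CDK2 lie below -1 under every setting drawn, and CCND1 and CDK4 lie nearest to 0.

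Levels of different genes can be compared only per length, here as CPM per kilobase of merged exons. With DMSO the order was CDK4 at 61.5 ± 2.88, CCND1 at 57.7 ± 1.51, CDK2 at 25.05 ± 1.05, CCND3 at 7.60 ± 0.666, CCNE2 at 6.61 ± 0.661, CCNE1 at 6.41 ± 0.349 and CDK6 at 0.643 ± 0.0663 (SD, n = 10). The ranges of CDK4 and CCND1 overlapped, as did those of CCND3, CCNE2 and CCNE1 with their neighbours, while CDK2 and CDK6 stood apart from theirs. With enzalutamide CDK4 stood at 54.5 ± 2.43, CCND1 at 51.8 ± 1.79, CDK2 at 11.2 ± 0.825, CCNE1 at 5.36 ± 0.347, CCNE2 at 5.33 ± 0.545, CCND3 at 5.09 ± 0.341 and CDK6 at 0.143 ± 0.0433 (SD, n = 5). The order of CCND3 and the E cyclins turned, within overlapping ranges. The order also depends on which transcript length is used, since per kilobase of the longest transcript CCND3 stood at 18.3 with DMSO and 12.2 with enzalutamide, above both E cyclins in each treatment.

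**Figure D3:**
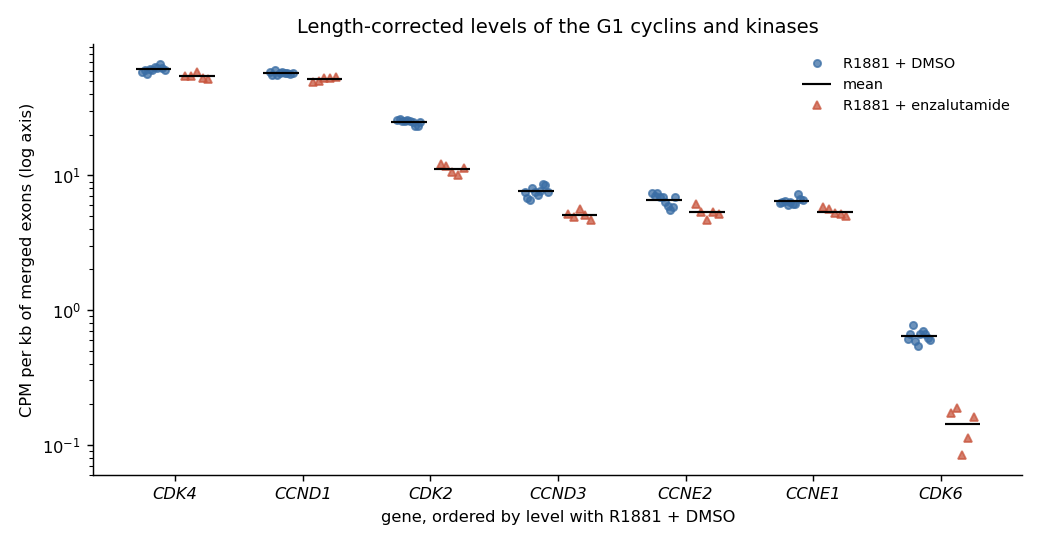
Level of each gene in CPM per kilobase of merged exons on a log axis, with a point per library and the mean as a bar, for R1881 + DMSO (10 libraries) and R1881 + enzalutamide (5 libraries). CDK4 and CCND1 are highest in both treatments and CDK6 lowest, at 0.643 and 0.143 on average.

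Summed per kilobase, the D-type cyclins stood at 65.3 ± 1.29 with DMSO and 56.9 ± 1.78 with enzalutamide (a change of -12.9%), and the kinases at 87.2 ± 2.35 and 65.8 ± 2.50 (-24.6%), both without overlap. The E-type cyclins stood at 13.0 ± 0.592 and 10.7 ± 0.824 (-17.8%), with overlap (SD, n = 10 and n = 5). These sums, the shares within them and the ratios were not tested. The sums and their overlap rest on the deposited scaling, on which the decrease of CCND1 depended, and were not repeated with equal library totals. CCND1 made up 88.4% ± 1.05 of the D-type cyclin sum with DMSO and 91.1% ± 0.638 with enzalutamide, and CCND3 the rest. With the longest transcript as length, the share of CCND3 was 22.0% with DMSO and 17.4% with enzalutamide. Among the kinases the share of CDK4 was 70.5% ± 1.63 and 82.8% ± 1.30, that of CDK2 28.7% ± 1.61 and 17.0% ± 1.23, and that of CDK6 0.738% ± 0.0855 and 0.218% ± 0.0659, each without overlap. With the longest transcript as length, the CDK6 share was 0.482% and 0.140%. CCNE1 held 49.3% ± 3.37 and 50.2% ± 1.92 of the E-type sum, and these ranges overlapped. In deposited CPM, where a ratio compares the treatments and not the levels of the genes, that of CDK2 to CDK4 was 0.513 ± 0.0397 with DMSO and 0.258 ± 0.0226 with enzalutamide without overlap, and that of CCND1 to CDK4, at 1.45 ± 0.0927 and 1.47 ± 0.0947, overlapped.

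Several of the genes share bases with a gene on the other strand, and the library kit keeps the strand but the sources used here do not say whether counting used it. TSPAN31, a tetraspanin gene, covers 44.2% of the exon bases of CDK4 and rose from 29.4 to 37.1 CPM (log2 fold change 0.33, adjusted p = 3.03e-06 by limma). INTS8, an Integrator subunit gene, covers 37.0% of those of CCNE2 and rose from 58.3 to 84.0 CPM (0.52, adjusted p = 4.07e-11). Each partner moved in the opposite direction to the cyclin or kinase gene it overlaps. The overlap is smaller for CCND1, where LTO1, listed as ORAOV1, covers 10.4% with a log2 fold change of -0.03 (adjusted p = 0.716), and for PMEL, which covers 2.29% of CDK2 with 0.15 (adjusted p = 0.212). A further 14.5% of the exon bases of CDK2 lie under the opposite-strand long noncoding RNA gene ENSG00000258554, for which no row was matched. NDUFAF6 (0.36) at CCNE2 and MARCHF9, listed as MARCH9 (0.16), at CDK4 share no exon bases.

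For the genes that fell by 0.5 or more on the log2 scale, the nearest profiles over the 15 libraries were sought among 12163 genes of mean CPM at least 5. The measure was the root-mean-square difference on the log2 scale, after each gene was centred on its mean over the DMSO libraries. A small difference thus reflects a like change with treatment as well as like variation between libraries. Nearest to CCND3 were DNM2 (0.050), ZSWIM8 (0.056) and PHKG2 (0.056), where the median over genes was 0.359. For CDK2 they were AMACR (0.045), SPATA13 (0.051) and FECH (0.054) with a median of 0.660. CDK6 had looser neighbours, TNFAIP8 (0.180), SAT1 (0.180) and MPC2 (0.191), with a median of 1.11. Each median grows with the size of the gene's own decrease, and the nearest were picked from 12163 genes, so likeness was not tested.

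Genes that act on these cyclins and kinases were followed as lists, whose counts are to be read against the 32.7% of all genes tested that fell and the 29.8% that rose (25.2% and 39% with equal library totals). Of the 7 CDK inhibitors, 4 rose and 2 fell, with a median log2 fold change of 0.17. CDKN1A, encoding p21, rose from 87.0 to 115 CPM (log2 fold change 0.40, adjusted p = 1.32e-07 by limma), and CDKN1B, encoding p27, by 0.17 (adjusted p = 0.000805). Of the INK4 genes, CDKN2A rose from 6.20 to 7.91 CPM (0.33). CDKN2B rose from 2.37 to 2.91 CPM with overlapping libraries (0.25, adjusted p = 0.0158 by limma). CDKN2C fell from 14.1 to 8.47 CPM (-0.70, adjusted p = 3.50e-09), and CDKN2D from 5.91 to 3.78 CPM (-0.58). CDKN1C stood at -0.12 (adjusted p = 0.263). The rows of the INK4 genes, each counted as a whole gene, thus split into a pair that rose and a pair that fell. Of 9 genes acting on the G1 kinases, 6 fell and 2 rose, from CDC25A, the phosphatase that activates CDK2 (40.7 to 14.4 CPM, -1.47), to WEE1, the kinase that inhibits it (43.5 to 61.7 CPM, 0.50), and with equal library totals 5 fell and 3 rose. Of 11 ubiquitin ligase parts 5 fell and none rose, from RBX1 (-0.43) to AMBRA1, which targets D-type cyclins (-0.12), and with equal library totals 4 fell and 3 rose.

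Downstream, of 13 RB pocket proteins and E2F-DP factors, 8 fell and 2 rose, from E2F7, a repressor (12.4 to 4.18 CPM, -1.47), to RBL2, a pocket protein (185 to 322 CPM, 0.80), and with equal library totals 6 fell and 2 rose. All 18 textbook E2F target genes of S phase entry fell, from RRM2, a subunit of ribonucleotide reductase (127 to 38.8 CPM, -1.69), to the helicase subunit MCM6 (109 to 72.6 CPM, -0.59). Their median log2 fold change of -0.88 lay below that of the G1 cyclins and kinases. The 5 S phase and mitotic cyclins with CDK1 that had a row also fell, with a median of -0.67, from CCNA2 (-1.02) to CCNF (-0.55). Of 15 transcriptional cyclins and CDKs, 5 fell and 3 rose, shares near and below those of all genes tested, from CCNQ, listed as FAM58A (-0.47), to CDK8, a Mediator kinase (31.8 to 113 CPM, 1.82), and with equal library totals 2 fell and 7 rose. Of 12 other cyclins and CDK family kinases tested, 2 fell and 4 rose, from CCNYL1 (-0.32) to CCNG2 (76.7 to 180 CPM, 1.23), and with equal library totals 1 fell and 8 rose.

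**Figure D4:**
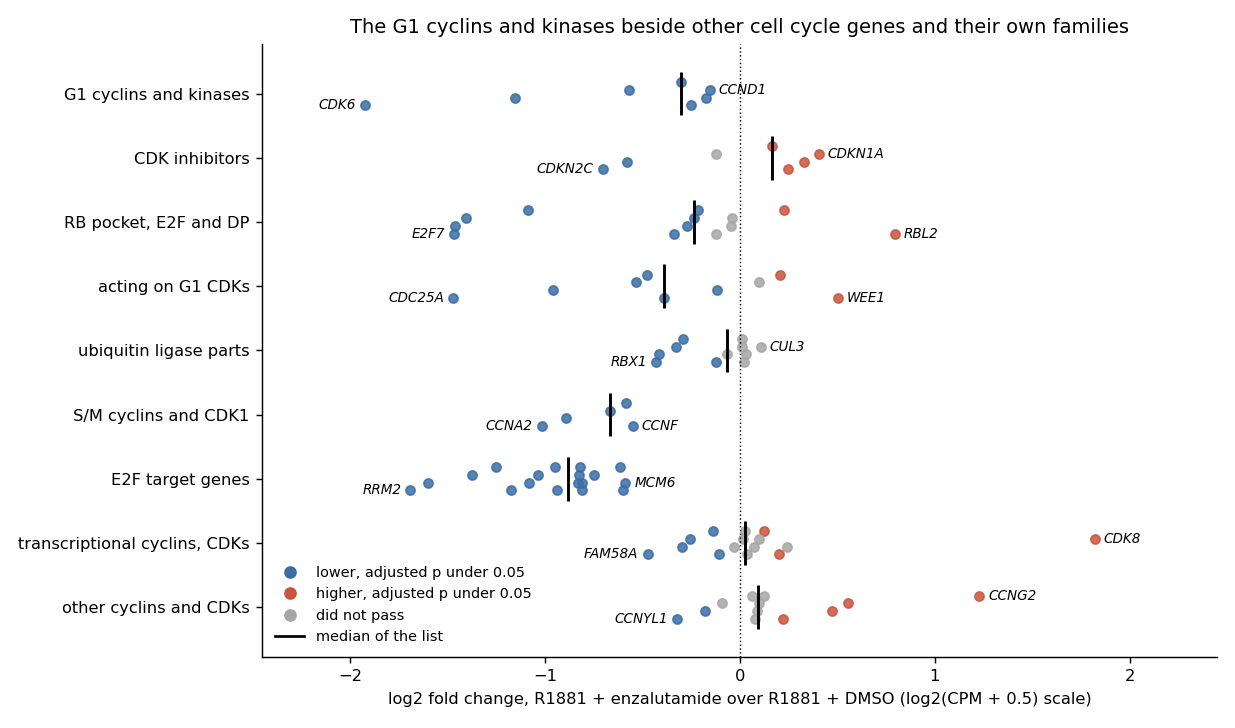
Log2 fold change (R1881 + enzalutamide over R1881 + DMSO) of every gene in each list, 1 row per list, with blue points for genes that fell and red for genes that rose at an adjusted p under 0.05, grey for the others, and a bar at the list's median. The G1 cyclins and kinases lie below 0 throughout with a median of -0.30, the E2F targets lie lower with -0.88, and the CDK inhibitors spread to both sides with a median of 0.17.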

How the data were processed

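Polyadenylated RNA of LNCaP cells was sequenced in 15 libraries, grouped by the sample labels as R1881 + DMSO (10) and R1881 + enzalutamide (5); the methods text gives these group sizes the other way round. The authors demultiplexed with bcl2fastq 2.17, mapped with STAR to GRCh38, counted with featureCounts (Subread) and deposited a normalized signal per gene, called CPM. The sources used here do not give other versions, the annotation, the strand setting, the rule for keeping genes or the scaling. Column sums ranged from 985580 to 1078567, and 100% of values were whole multiples of 1 read within 0.01 reads. The study calls the libraries biological replicates, and neither it nor the labels say whether they come from separate cultures, so p-values and the printed confidence intervals measure only the spread between these libraries; each of 55 same-treatment pairs differed by more than sampling noise.

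Differences were tested with limma 3.58.1 in R 4.3.3 on log2(CPM + 0.5) with a mean-variance trend, genes of mean CPM at least 0.5 (17046), treatment as the only term and Benjamini-Hochberg adjustment at 0.05. edgeR 4.0.16 (quasi-likelihood) and DESeq2 1.42.0 on the recovered reads were alternatives, with other pseudocounts, filters, scalings, DMSO runs, a GC correction, a replicate block and left-out libraries. In simulated data with 200 of 16808 genes changed 2-fold, 98.5% were recovered and 9 of 16608 unchanged genes were called. The simulation took the deposited scaling as correct and held no change under 2-fold, so it does not cover the smaller decreases or the scaling. Symbols matched GENCODE v44 for 85.7% of genes. Named genes were the 8 cyclins and kinases, 3 androgen check genes, every CDK inhibitor, the lowest and highest called gene of each other list, overlapping genes and the 3 nearest profiles. COL1A1, COL3A1, LUM and KRT14 are listed cell type markers; a value that the lists would name is not reported here. The members and lists were chosen with earlier results of these data known. Genes without a row were not analysed here.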

Additional observations from a re-analysis of the deposited data

Results flagged for a closer look

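The CCNE1 level of replicate 6 with R1881 + DMSO, at 17.8 CPM, lay far from the nearest of the other libraries of its group at 16.3 CPM, with a gap of 0.509 of the group's range against a critical value of 0.466. The recovered reads of replicate 5 with R1881 + enzalutamide, 25416052, stood apart from the next highest at 22329140, with 0.730 of the range against 0.710. In all, 26 groups of libraries were examined and 2 exceeded their critical value, where chance gives about 1.3. Leaving out either library kept all 7 genes lower at the threshold.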

How the results depend on the processing

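All 7 genes kept a negative log2 fold change under each of the 28 alternatives, and none was reversed. CCND1 missed the threshold with equal library totals (-0.062, adjusted p = 0.0603) and with a GC trend removed (-0.0835, adjusted p = 0.0507), and CDK4 with equal library totals (-0.0819, adjusted p = 0.0733). The cause was not tested. Over all genes tested, 10660 were called, 10093 to 10864 with each library left out and 8297 to 10929 under the others; equal library totals moved the share of calls that were lower from 52.3% to 39.2%. With each library left out, log2 fold changes ranged from -0.17 to -0.14 for CCND1, -0.60 to -0.54 for CCND3, -0.28 to -0.22 for CCNE1, -0.36 to -0.25 for CCNE2, -1.18 to -1.12 for CDK2, -0.20 to -0.16 for CDK4 and -2.01 to -1.79 for CDK6. The replicate numbers 1 to 5 did not pair the libraries (correlations of deviations from -0.0678 to 0.0739, own number best for 1 of 5); with the replicate block 10048 genes were called, all 7 genes stayed lower, and log2 fold changes were -0.14 for CCND1, -0.60 for CCND3, -0.23 for CCNE1, -0.30 for CCNE2, -1.16 for CDK2, -0.18 for CDK4 and -1.84 for CDK6. With the longest transcript as length, the DMSO and enzalutamide shares were 78% and 82.6% for CCND1, 22.0% and 17.4% for CCND3, 26.7% and 15.6% for CDK2, 72.8% and 84.2% for CDK4 and 0.482% and 0.140% for CDK6. Depth limits CDK6 most, with 22 to 49 reads per enzalutamide library.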
